A study of Mus musculus with 9 samples.

Results

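The genes described here make ribosomes: they encode subunits and factors of RNA polymerase I, the proteins of small nucleolar ribonucleoproteins (snoRNPs), abundant nucleolar proteins, and assembly factors of the small (40S) and large (60S) ribosomal subunits. A list of 57 genes was chosen by function, with earlier results of these data known. Each gene was read from its brightest probe set, the one with the highest mean over the 9 arrays among probe sets that the platform annotation assigns to that gene alone. Of the 57 genes, 55 had such a probe set, among 18193 genes that had one, and all 55 passed the filter on low values with 15235 genes in all. Npm3 had no probe set here, and Mrto4 was read only by 1 probe set that it shares with pseudogenes, so neither was measured. The only measured value in the choice of probe sets was the mean level, but Nop16 and Taf1d were already known from these data as genes with some of the largest decreases in ICAT cells. Their values in comparisons that use the ICAT arrays are therefore given as a description, with no p of their own. Counts over groups of genes include them. The main counts are also given without them, and the other counts are not.

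The arrays compared beta-catenin cells, ICAT cells and control cells, with 3 arrays of each. All 9 came from the mouse pancreatic cancer cell line 170#3, of mixed C57BL6 x FVB x 129Sv background, cultured as a monolayer in DMEM with 10% FBS and distinguished in the labels by a stable transfection with beta-catenin, ICAT or a control. Beta-catenin (Ctnnb1) is the transcriptional co-activator of the canonical Wnt pathway, and ICAT (Ctnnbip1) is a small protein that binds it and keeps it from TCF factors. The replicates are described as independent or biological, and the labels name neither the promoter of the transgenes nor whether each line was 1 clone.

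RNA polymerase I transcribes the long precursor of most ribosomal RNA in the nucleolus. Box C/D and box H/ACA snoRNPs then methylate and pseudouridylate that RNA, the small subunit processome folds and cleaves it, and separate sets of helicases, GTPases and scaffold proteins finish the small and the large subunit. Many of these genes are known targets of MYC, which binds the E-box CACGTG together with MAX, and Myc is itself a known target of beta-catenin and TCF in the intestine.

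The lowest correlation between replicate arrays was 0.997 in beta-catenin cells, 0.9908 in ICAT cells and 0.998 in control cells. Ctnnb1 was 1.15 times higher in beta-catenin cells and 1.14 times higher in ICAT cells than in control cells, with adjusted p = 0.0353 and 0.0364 by limma. Ctnnbip1 had log2 levels of 8.76, 8.65 and 8.95 in ICAT cells, against 8.64, 8.62 and 8.67 in control cells, and did not pass the test (limma, adjusted p = 0.189). It was not examined whether these probe sets lie in the transfected sequences, so the names of the lines rest on the labels alone. Of epithelial markers, Cdh1 was under the filter in all groups, and 7 of 9 listed markers were tested.

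Promoter windows of 300 bases, 250 before and 50 after the annotated start, were read from the RefSeq table of build GRCm38.p6, which held 52 of the 57 genes. Fbl, Npm1, Rrp12, Rrs1 and Bop1 were not matched. The palindrome CACGTG occurred in 12 of the 52 (23.1%), against 10.8% of the 12185 tested genes with a window. Of 13 matches, 11 had their first letter between positions -60 and 38 relative to the start. The ETS-type motif CCGGAAG, searched on both strands, was in 36.5% of these genes and in 16.9% of tested genes, while the TCF-type motif CTTTGAT was in 1.92% and 3.41%. Its variant CTTTGAA was in 3.85% of these genes, against 4.63% of tested genes, and TCTCGCGAG was in 1.92%, against 1.37%. None of these searched motifs contains another, and a match describes letters only.

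Windows are shown for 3 genes described further below, 5′ to 3′ on the strand of the gene, with each CACGTG in capitals. Nop16 (chr13:54590025-54590324, minus strand) had the largest decrease in ICAT cells and holds no E-box in its window. Rrn3 (chr16:13780449-13780748, plus strand) holds 2, and was the only gene of the list with more than 1. Nle1 (chr11:82908346-82908645, minus strand) had the largest increase in beta-catenin cells and holds its E-box after the start.
Nop16: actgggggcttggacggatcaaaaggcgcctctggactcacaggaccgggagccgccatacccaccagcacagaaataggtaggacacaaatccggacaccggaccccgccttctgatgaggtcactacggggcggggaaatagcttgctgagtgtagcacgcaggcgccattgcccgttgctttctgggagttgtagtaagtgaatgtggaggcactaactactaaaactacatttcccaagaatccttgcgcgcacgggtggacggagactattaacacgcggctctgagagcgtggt
Rrn3: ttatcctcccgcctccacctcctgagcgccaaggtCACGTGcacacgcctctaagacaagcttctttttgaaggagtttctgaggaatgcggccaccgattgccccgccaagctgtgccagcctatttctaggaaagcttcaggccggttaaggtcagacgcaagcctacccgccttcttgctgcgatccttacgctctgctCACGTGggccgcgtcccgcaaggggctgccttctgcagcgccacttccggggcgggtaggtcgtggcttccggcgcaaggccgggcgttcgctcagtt
Nle1: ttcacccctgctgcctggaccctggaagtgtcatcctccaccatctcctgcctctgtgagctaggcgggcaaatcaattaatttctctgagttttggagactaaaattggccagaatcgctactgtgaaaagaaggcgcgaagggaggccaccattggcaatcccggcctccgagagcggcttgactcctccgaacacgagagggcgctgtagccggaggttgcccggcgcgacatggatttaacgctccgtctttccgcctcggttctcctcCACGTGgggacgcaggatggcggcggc

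In ICAT cells, 52 of the 55 measured genes fell and 0 rose relative to control cells (limma, adjusted p under 0.05), where 37.2% of all 15235 genes tested were called, 18.5% lower and 18.7% higher. At an unadjusted p under 0.05 the counts were the same, 52 lower and 0 higher, and none of the 55 differences was above 0. The median difference was -0.65 on the log2 scale, or 1.57 times lower, against -0.01 over all genes tested. On 53 of the 55 genes every ICAT array lay below every control array, as did 23.3% of all genes, and on 0 every one lay above, as on 22.9% of all genes. Of the 55, 35 were called and at least 1.5 times lower, as were 3.64% of all genes. Without Nop16 and Taf1d, 50 of 53 genes fell, 33 of them at least 1.5 times, and the median was -0.63. RNA was taken from whole cultures, so less RNA per cell and fewer cells of a kind that expresses these genes cannot be told apart.

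The genes that did not pass the test in ICAT cells were Nop14 (difference -0.20, adjusted p = 0.175), Npm1 (-0.09, adjusted p = 0.241) and Polr1d (-0.00, adjusted p = 1.0). Nop14 is a component of the small subunit processome, and its ICAT arrays at 9.52, 9.19 and 9.64 overlapped the control arrays at 9.64, 9.63 and 9.68. Npm1, nucleophosmin, is an abundant nucleolar chaperone, with levels of 13.88, 13.84 and 13.81 in ICAT cells, against 13.91, 13.96 and 13.93 in control cells. Its other probe set differed by -0.17 in ICAT cells and was not called either (adjusted p = 0.0596, limma over all probe sets). Polr1d, a small subunit shared by RNA polymerases I and III, had 3 other probe sets, of which 1 was lower in ICAT cells by -0.34 (limma over all probe sets, adjusted p = 0.00778).

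In beta-catenin cells more of the genes fell than rose, and most did not pass the test. Of the 55 genes, 18 fell, 4 rose and 33 did not pass the test, where 34.9% of all genes were called, 15.4% lower and 19.6% higher. The median difference was -0.06, against -0.03 over all genes tested. With Nop16 and Taf1d left out, 16 of 53 fell and 4 rose, and the median was -0.05. By brightest probe set, only Noc2l was called and at least 1.5 times lower, while 4.33% of all genes were. Rrp1b was not called by its brightest probe set (difference -0.10, adjusted p = 0.436). Its 2 other probe sets were called lower, with differences of -0.61 (1.53 times, adjusted p = 7.41e-05, limma over all probe sets) and -0.36. On 23 genes all beta-catenin arrays lay below all control arrays and on 12 all lay above, against 26.3% and 27.8% of all genes. The comparison uses the same 3 control arrays as that of ICAT cells, so the values in both lines are set side by side below and their likeness is not tested.

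Set directly against ICAT cells, beta-catenin cells had higher levels of 47 of the 55 genes and a lower level of 1, where 40.4% of all genes were called, 22.5% higher and 17.9% lower. On 48 genes all beta-catenin arrays lay above all ICAT arrays and on 1 all lay below, against 25.2% and 22.3% of all genes. The median difference was 0.59, or 1.51 times, against -0.01 over all genes. Without Nop16 and Taf1d, 45 of 53 were higher and 1 lower. The genes not called were Noc2l, Polr1c, Polr1d, Rrn3, Wdr43, Nop14 and Npm1, and the gene called lower was Imp3. The other Npm1 probe set was called, 0.31 higher in beta-catenin cells (adjusted p = 0.00217, limma over all probe sets).

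**Figure D1:**
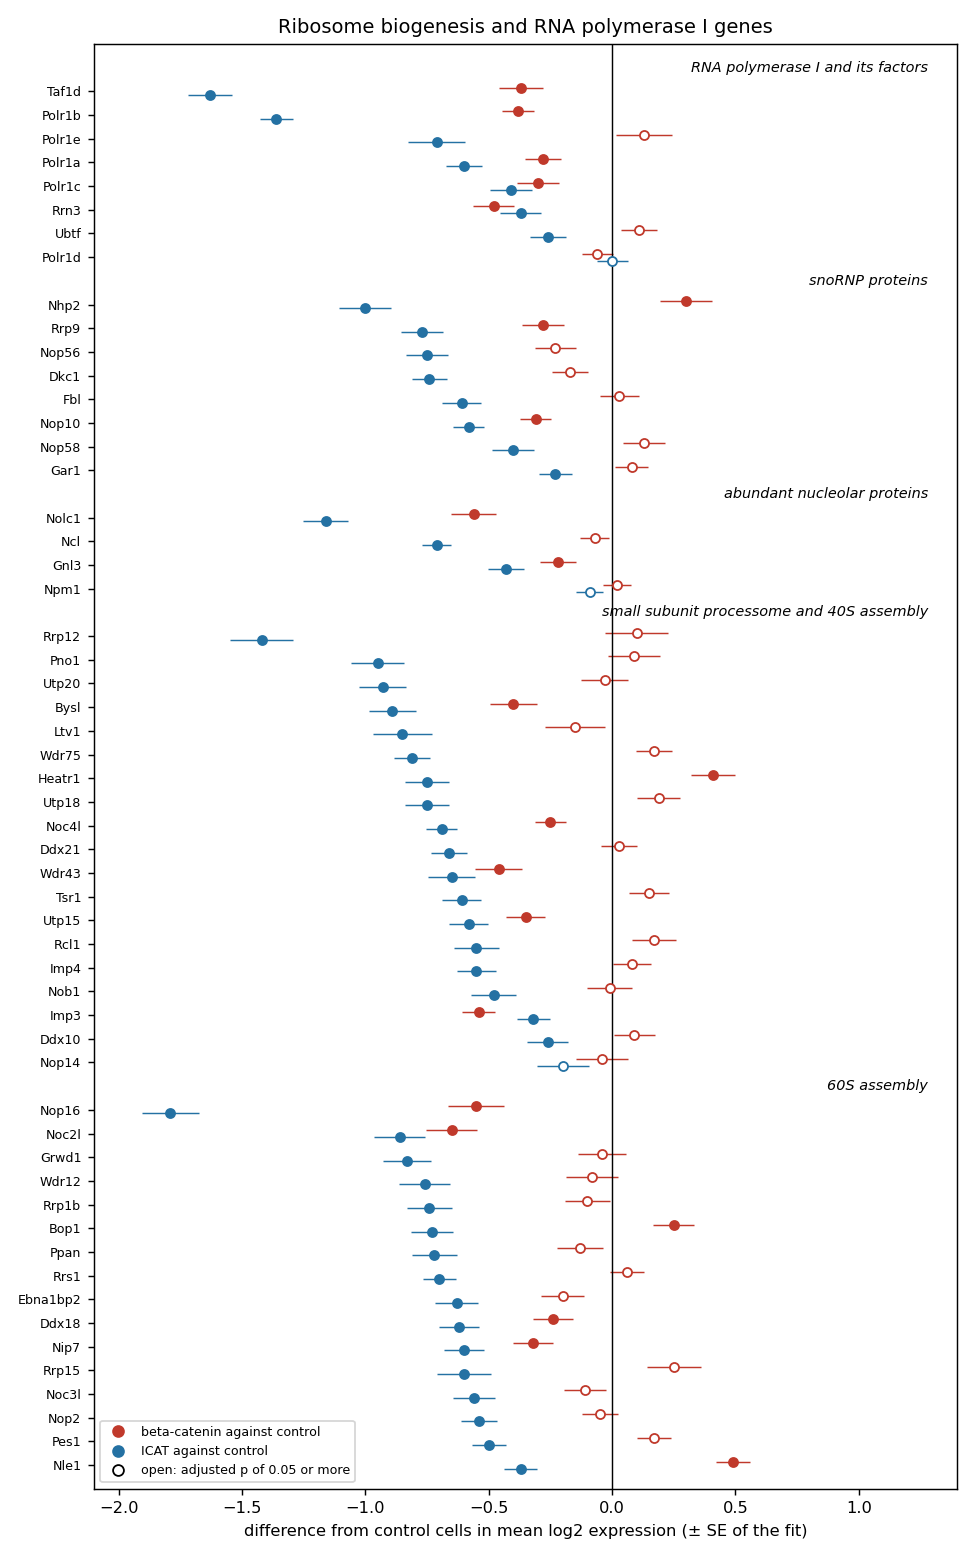
Difference of each of the 55 genes from control cells in mean log2 expression, ± SE of the limma fit, for beta-catenin cells (red) and ICAT cells (blue), grouped by role, with open points where the adjusted p was 0.05 or more. The ICAT points reach -1.79 (Nop16) and none lies above 0, while the beta-catenin points lie between -0.65 (Noc2l) and 0.49 (Nle1).

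Of the 8 genes of RNA polymerase I and its factors, 7 fell in ICAT cells, and in beta-catenin cells 5 fell and 0 rose. For this and the other groups by role, the shares over all genes tested were 18.5% lower and 18.7% higher in ICAT cells. In beta-catenin cells these shares were 15.4% lower and 19.6% higher. The medians were -0.29 in beta-catenin cells and -0.51 in ICAT cells. Without Taf1d, 4 of 7 fell in beta-catenin cells and 6 of 7 in ICAT cells, with medians of -0.28 and -0.41. Taf1d, a subunit of the promoter selectivity factor SL1, had log2 levels of 9.47, 9.69 and 9.78 in beta-catenin cells, 8.43, 8.27 and 8.48 in ICAT cells, and 9.98, 9.99 and 10.10 in control cells. The 3 groups did not overlap, and ICAT cells were lowest. Its differences from control cells were -0.37 in beta-catenin cells (adjusted p = 0.00647 by limma) and -1.63, or 3.09 times lower, in ICAT cells. All 6 other Taf1d probe sets had lower means in ICAT cells than in control cells, with differences between -0.24 and -1.05.

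Polr1b encodes the second-largest subunit of the polymerase. Its levels were 9.16, 9.13 and 8.98 in beta-catenin cells, 8.14, 8.08 and 8.11 in ICAT cells, and 9.44, 9.51 and 9.45 in control cells. Again the groups were apart with ICAT cells lowest, 2.56 times lower than control cells (difference -1.36 ± 0.065 SE, limma adjusted p = 1.74e-07). Beta-catenin cells were 1.3 times lower (difference -0.38, adjusted p = 0.000806). The largest subunit, Polr1a, fell by 0.60 in ICAT cells (adjusted p = 7.41e-05) and by 0.28 in beta-catenin cells (adjusted p = 0.00991).

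Rrn3, the initiation factor that recruits the polymerase to the ribosomal promoter, moved differently from Polr1b. It stood at 9.62, 9.79 and 9.85 in beta-catenin cells, 9.82, 9.76 and 10.01 in ICAT cells, and 10.18, 10.27 and 10.25 in control cells. Both lines lay below control cells on every array and overlapped each other. The differences were -0.48 in beta-catenin cells (adjusted p = 0.000863) and -0.37 in ICAT cells (adjusted p = 0.0044), and between the lines -0.11 ± 0.083 (SE, adjusted p = 0.353). Polr1c, shared with RNA polymerase III, also fell in both lines, by 0.30 in beta-catenin cells and by 0.41 in ICAT cells. Its beta-catenin call (adjusted p = 0.0172) was lost without control replicate 1 or 2 or beta-catenin replicate 1 or 2.

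Polr1e and Ubtf, the factor that binds along the ribosomal DNA, were lower in ICAT cells than in either other group. Polr1e fell by 0.71 in ICAT cells (adjusted p = 0.000517), with a difference of 0.13 in beta-catenin cells (adjusted p = 0.45), and the lines differed by 0.84 (adjusted p = 0.000144). Ubtf fell by 0.26 in ICAT cells (adjusted p = 0.0155), a call lost without control replicate 2 or ICAT replicate 2, and beta-catenin cells were higher than ICAT cells by 0.37 (adjusted p = 0.00165). Its second probe set fell by 0.66 in ICAT cells (adjusted p = 0.000205 over all probe sets).

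All 8 snoRNP protein genes fell in ICAT cells, with a median of -0.67, while in beta-catenin cells 1 rose, 2 fell and the median was -0.07. Nhp2, a core protein of box H/ACA particles, had levels of 12.52, 12.63 and 12.68 in beta-catenin cells, 11.19, 11.13 and 11.59 in ICAT cells, and 12.31, 12.31 and 12.30 in control cells. Beta-catenin arrays were the highest and ICAT arrays the lowest, with no overlap. It was 2.01 times lower in ICAT cells (difference -1.0, adjusted p = 2.72e-05) and 2.47 times higher in beta-catenin cells than in ICAT cells (difference 1.31, adjusted p = 2.76e-06). The increase of 0.30 over control cells (adjusted p = 0.043) was lost without any 1 control replicate, without beta-catenin replicate 2 or 3, or with arrays centred on their medians.

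The other H/ACA proteins differed in size. Dkc1, the pseudouridine synthase dyskerin, fell by 0.74 in ICAT cells (adjusted p = 1.86e-05), Nop10 by 0.58 (adjusted p = 3.76e-05) and Gar1 by 0.23 (adjusted p = 0.0181). The Gar1 call was lost without control replicate 1 or 3 or ICAT replicate 2. Nop10 also fell in beta-catenin cells, by 0.31 (adjusted p = 0.00254). Of the box C/D proteins, the methyltransferase Fbl (fibrillarin) fell by 0.61 in ICAT cells, Nop56 by 0.75, Nop58 by 0.40 and the U3 protein Rrp9 by 0.77, all with adjusted p of 0.00304 or less. In beta-catenin cells Rrp9 fell by 0.28 (adjusted p = 0.0255). That call was lost without any 1 control replicate, without beta-catenin replicate 1 or 2, or with arrays centred on their medians.

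Among the 4 measured nucleolar proteins, 3 fell in ICAT cells, and in beta-catenin cells 2 fell and 0 rose. Nolc1, a chaperone of snoRNPs, had levels of 11.11, 11.13 and 11.27 in beta-catenin cells, 10.60, 10.37 and 10.74 in ICAT cells, and 11.71, 11.68 and 11.80 in control cells. The groups were fully apart. It was 1.48 times lower in beta-catenin cells (difference -0.56, adjusted p = 0.00053) and 2.24 times lower in ICAT cells (difference -1.16, adjusted p = 4.07e-06). Its other probe sets disagreed in beta-catenin cells, with differences of -0.55 (adjusted p = 0.00341, limma over all probe sets) and 0.12 (not called, adjusted p = 0.564). In ICAT cells both were called lower, with differences of -1.14 and -0.75. Ncl, nucleolin, fell by 0.71 in ICAT cells (adjusted p = 5.52e-06), with a difference of -0.07 in beta-catenin cells (adjusted p = 0.372). Its other probe sets differed in beta-catenin cells by -0.38 (adjusted p = 0.0185, limma over all probe sets), -0.19, -0.18 and -0.09, and only the first was called. With the mean of its probe sets, or the most variable one, Ncl was called lower in beta-catenin cells. Gnl3, nucleostemin, fell by 0.43 in ICAT cells (adjusted p = 0.000755) and by 0.22 in beta-catenin cells (adjusted p = 0.0417). The second call was lost in 8 settings. It was lost with any 1 control replicate or beta-catenin replicate 1 or 2 left out. It was also lost with no filter, with the most variable probe set of each gene, or with arrays centred on their medians. Gnl3 itself had only 1 probe set, so the choice of probe set changed only the other genes in the fit.

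**Figure D2:**
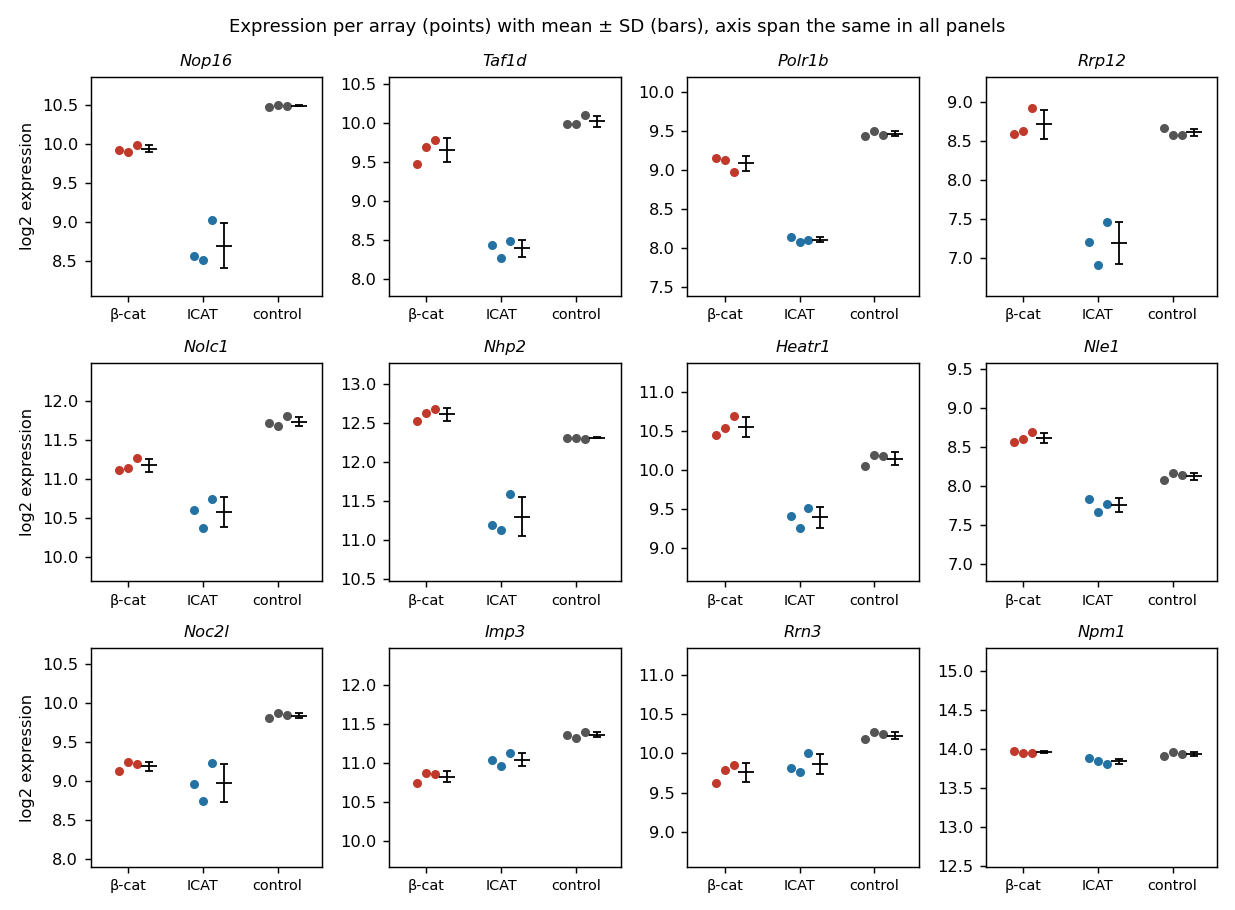
Log2 expression of 12 of the genes on each array (points), with mean ± SD of the 3 arrays (bars), for beta-catenin, ICAT and control cells, every panel spanning the same range. Nop16, Taf1d, Polr1b and Nolc1 have 3 separate groups with ICAT lowest, Imp3 and Rrn3 lie below control in both lines, and Npm1 differs by 0.09 at most between ICAT and control means.

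The largest group, 19 genes of the small subunit processome and 40S assembly, held 18 that fell in ICAT cells. In beta-catenin cells 1 rose and 5 fell, and the medians were 0.03 in beta-catenin cells and -0.66 in ICAT cells. Rrp12, needed in yeast for maturation and export of the 40S precursor, had levels of 8.59, 8.63 and 8.92 in beta-catenin cells, 7.20, 6.91 and 7.46 in ICAT cells, and 8.66, 8.58 and 8.58 in control cells. Beta-catenin and control arrays overlapped, and ICAT arrays lay more than 1 log2 unit lower. The difference between ICAT and control cells was -1.42 ± 0.127 SE, 2.67 times lower (adjusted p = 1.01e-05). Between beta-catenin and ICAT cells it was 1.52, the largest of the list (adjusted p = 3.94e-06).

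Pno1 and Utp20 were also lowest in ICAT cells. Pno1, the partner of the nuclease Nob1 in the 40S precursor, had 10.86, 10.88 and 11.04 in beta-catenin cells, 9.80, 9.71 and 10.15 in ICAT cells, and 10.91, 10.75 and 10.86 in control cells. It fell by 0.95 in ICAT cells (adjusted p = 4.41e-05), with a difference of 0.09 in beta-catenin cells (adjusted p = 0.58). Utp20, a large scaffold protein, had 9.88, 10.03 and 10.12 in beta-catenin cells, 9.21, 8.90 and 9.24 in ICAT cells, and 10.01, 10.06 and 10.06 in control cells. It fell by 0.93 in ICAT cells (adjusted p = 2.29e-05), and beta-catenin arrays overlapped control arrays (difference -0.03, adjusted p = 0.82).

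Heatr1, the ortholog of yeast Utp10 and a factor for transcription of ribosomal RNA, was the gene of this group that rose in beta-catenin cells. Its levels were 10.45, 10.54 and 10.70 in beta-catenin cells, 9.41, 9.26 and 9.52 in ICAT cells, and 10.06, 10.20 and 10.19 in control cells. No array of one group reached another. It was 1.33 times higher in beta-catenin cells (difference 0.41, adjusted p = 0.00322), 1.69 times lower in ICAT cells (difference -0.75, adjusted p = 6.06e-05), and 2.25 times higher in beta-catenin cells than in ICAT cells. Its 2 dimmer probe sets differed by -0.04 and -0.02 in beta-catenin cells and did not pass the test, and with the mean of its probe sets the increase was 0.12 and lost its call (adjusted p = 0.248). Wdr75, which acts in the same early subcomplex, had 10.39, 10.51 and 10.60 in beta-catenin cells, 9.55, 9.41 and 9.59 in ICAT cells, and 10.32, 10.35 and 10.32 in control cells. It fell by 0.81 in ICAT cells (adjusted p = 9.74e-06), and its difference of 0.17 in beta-catenin cells did not pass the test (adjusted p = 0.0959).

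Wdr43, another protein of that subcomplex, stood lower in both lines, with 10.16, 10.23 and 10.44 in beta-catenin cells, 10.15, 9.92 and 10.18 in ICAT cells, and 10.82, 10.61 and 10.77 in control cells. The 2 lines overlapped, at differences from control cells of -0.46 in beta-catenin cells (adjusted p = 0.00302) and -0.65 in ICAT cells (adjusted p = 0.000286). Imp3, which in yeast helps U3 snoRNA to pair with the precursor, was the gene called lower in beta-catenin cells than in ICAT cells. It had 10.74, 10.87 and 10.86 in beta-catenin cells, 11.03, 10.96 and 11.13 in ICAT cells, and 11.36, 11.32 and 11.39 in control cells. It fell by 0.54 in beta-catenin cells (adjusted p = 6.82e-05) and by 0.32 in ICAT cells (adjusted p = 0.00293). The difference between the lines, -0.22 (adjusted p = 0.0206), lost its call without beta-catenin replicate 1, with array weights, with arrays centred on their medians or with only the 6 arrays compared. Bysl, a factor of late 40S maturation, had 9.53, 9.57 and 9.70 in beta-catenin cells, 9.0, 8.99 and 9.35 in ICAT cells, and 10.00, 9.95 and 10.06 in control cells. It fell in both lines, by 0.40 in beta-catenin cells (adjusted p = 0.00693, not called by its most variable probe set) and by 0.89 in ICAT cells (adjusted p = 3.65e-05).

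For the RNA helicase Ddx21 the probe sets disagreed in beta-catenin cells. The brightest differed from control cells by 0.03 (adjusted p = 0.766), and the other fell by 0.51 (adjusted p = 0.002 over all probe sets), while both fell in ICAT cells, by 0.66 and by 1.44. The helicase Ddx10 fell by 0.26 in ICAT cells (adjusted p = 0.0296), a call lost without any 1 control replicate or without ICAT replicate 1 or 2.

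All 16 measured genes of 60S assembly fell in ICAT cells, with a median of -0.67, and in beta-catenin cells 2 rose and 4 fell, with a median of -0.09. Without Nop16, 15 of 15 fell in ICAT cells, and in beta-catenin cells 2 rose and 3 fell. Nop16, a nucleolar protein of the 60S precursor, had levels of 9.93, 9.90 and 9.99 in beta-catenin cells, 8.56, 8.51 and 9.03 in ICAT cells, and 10.48, 10.50 and 10.49 in control cells. The groups were apart, with control cells highest and ICAT cells lowest. The differences from control cells were -0.55 in beta-catenin cells (adjusted p = 0.00278) and -1.79 in ICAT cells, 3.46 times lower. Its second probe set was much dimmer, with means of 6.16 in beta-catenin cells, 6.26 in ICAT cells and 6.52 in control cells. There beta-catenin cells were lower by -0.36 (adjusted p = 0.0269 over all probe sets), and ICAT cells differed by -0.26, so that the order of the lines was not that of the brightest probe set.

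Noc2l, whose yeast ortholog accompanies the 60S precursor through the nucleus, had the largest decrease of the list in beta-catenin cells. Its levels were 9.13, 9.24 and 9.22 in beta-catenin cells, 8.96, 8.74 and 9.23 in ICAT cells, and 9.81, 9.87 and 9.85 in control cells. Both lines lay below control cells and overlapped each other. The differences were -0.65 in beta-catenin cells (1.57 times lower, adjusted p = 0.000445) and -0.86 in ICAT cells (adjusted p = 6.9e-05). The other Noc2l probe set was dimmer, with a control mean of 7.96, and its differences were smaller. They were -0.15 in beta-catenin cells, not called (adjusted p = 0.141, limma over all probe sets), and -0.25 in ICAT cells (adjusted p = 0.0175).

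Nle1, a WD-repeat protein whose yeast ortholog works with the remodelling ATPase of the 60S precursor, rose in beta-catenin cells. It had 8.57, 8.61 and 8.70 in beta-catenin cells, 7.84, 7.67 and 7.78 in ICAT cells, and 8.08, 8.17 and 8.14 in control cells. Its increase of 0.49, or 1.41 times (adjusted p = 0.000158), was the largest of the list, beside a decrease of -0.37 in ICAT cells (adjusted p = 0.00134). Bop1, Pes1 and Wdr12 form the PeBoW complex of 60S maturation. Bop1 had 10.15, 10.15 and 10.25 in beta-catenin cells, 9.11, 9.10 and 9.39 in ICAT cells, and 9.86, 10.00 and 9.94 in control cells. Its increase of 0.25 in beta-catenin cells (adjusted p = 0.0369) was lost without any 1 control or beta-catenin replicate, or with the mean of its probe sets. The Bop1 difference in ICAT cells was -0.73 (adjusted p = 5.16e-05). Pes1 fell by 0.50 in ICAT cells (adjusted p = 0.000196) and Wdr12 by 0.76 (adjusted p = 0.000193), while the other Pes1 probe set differed by -0.17 (adjusted p = 0.241 over all probe sets). In beta-catenin cells the brightest Pes1 probe set differed by 0.17 (adjusted p = 0.0874), its other one rose by 0.77 (adjusted p = 0.000101), and Wdr12 differed by -0.08 (adjusted p = 0.631).

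Of the 4 increases in beta-catenin cells, those of Heatr1 and Nle1 kept their call whichever array was left out, though that of Heatr1 was lost with the mean of its probe sets. With any 1 control array left out, or beta-catenin replicate 2 or 3, 2 genes were called higher in place of 4. Ddx18 was called lower in beta-catenin cells by 0.24 (adjusted p = 0.0378), and that call too was lost without single arrays, control replicates 1 and 3 among them.

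Other probe sets of the same genes were also read, on the same arrays, so they are no independent measure. There were 57 that passed the filter, of 36 genes. In ICAT cells 46 fell, 0 rose and 11 did not pass the test, and in beta-catenin cells 18 fell and 2 rose. Against ICAT cells, 40 were higher in beta-catenin cells. The shares over all probe sets were not counted. Over all genes tested, 18.5% fell and 18.7% rose in ICAT cells, and 15.4% fell and 19.6% rose in beta-catenin cells. Between the lines, 22.5% of all genes were higher in beta-catenin cells. Without the probe sets of Nop16 and Taf1d, 40 of 50 fell in ICAT cells and 38 of 50 were higher in beta-catenin cells than in ICAT cells. Where both probe sets of a gene were called, their directions did not differ. Ddx21 in beta-catenin cells against control cells, and Polr1d in beta-catenin cells against ICAT cells, each had a probe set called against the sign of a brightest one that was not called.

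The replicate arrays of a line did not stand level for these genes. The median difference of the 55 genes from their control means was -0.15, -0.06 and 0.02 on the 3 beta-catenin arrays and -0.65, -0.77 and -0.50 on the 3 ICAT arrays. Within the ICAT group, replicate 2 was the lowest array for 49 of the 55 genes (33.7% of all genes tested) and replicate 3 the highest for 47 (43.9% of all genes). In the beta-catenin group, replicate 1 was lowest for 47 (43.7% of all genes) and replicate 3 highest for 48 (40.1% of all genes). Replicate 3 was thus most often the highest in both lines, and whether those arrays share an effect was not tested. The median SD of these genes between replicates was 0.0845 in beta-catenin cells, 0.149 in ICAT cells and 0.0305 in control cells, and over all genes it was 0.0746, 0.121 and 0.0567. Leaving out ICAT replicate 2 gave 49 genes lower in ICAT cells, and leaving out replicate 3 gave 53.

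**Figure D3:**
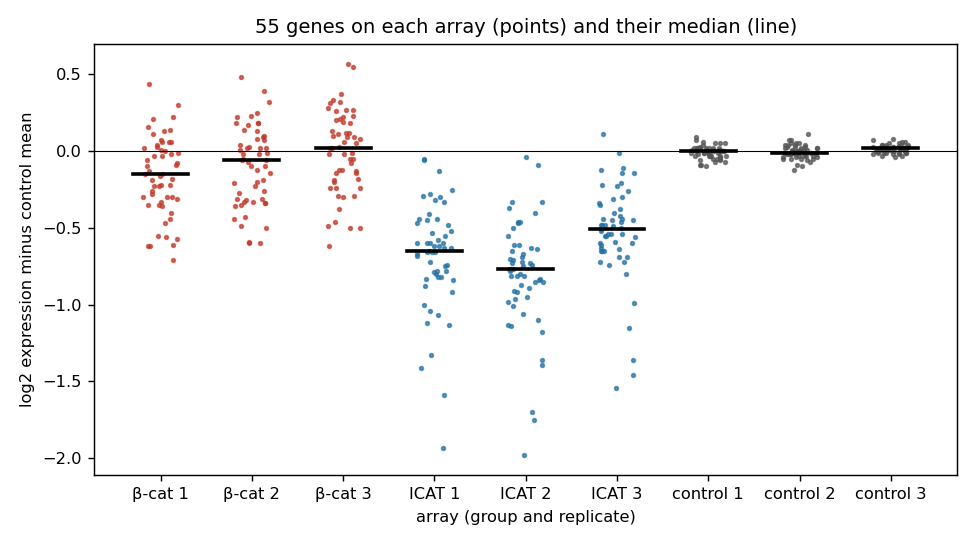
Log2 expression minus the control mean for each of the 55 genes (points) on each of the 9 arrays, with the median as a line. The medians of the ICAT arrays lie between -0.77 and -0.50, those of the beta-catenin arrays between -0.15 and 0.02, and no ICAT array overlaps a beta-catenin array in its median.

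Other genes moved in ICAT cells at the same time, and their part in the result was not tested. Of 19 genes of G2/M phase and mitosis, 17 fell in ICAT cells and 0 rose (0 at an unadjusted p as well), with a median of -0.53. In beta-catenin cells 4 rose and 2 fell, with a median of 0.15. For this and the lists below, the shares over all genes tested were 18.5% lower and 18.7% higher in ICAT cells. They were 15.4% lower and 19.6% higher in beta-catenin cells. Aurka, a mitotic kinase, fell by 0.88 in ICAT cells (adjusted p = 2.67e-05). Of 8 tested fibroblast markers of 10 listed, 7 rose in ICAT cells and 0 fell, and their summed level was between 13.21 and 13.35 in beta-catenin cells, 14.61 and 14.72 in ICAT cells, and 13.67 and 13.68 in control cells on the log2 scale, with Lum and Fap under the filter. Of 7 tested epithelial and ductal markers, 4 rose in ICAT cells, and the summed level was between 10.09 and 10.14 in beta-catenin cells, 10.53 and 10.83 in ICAT cells, and 10.09 and 10.18 in control cells. Immune markers (4 tested, Ptprc under the filter) and endothelial markers (3 tested) held 0 called in ICAT cells by limma. At an unadjusted p under 0.05, 1 immune marker was higher and 0 endothelial markers differed. Of 3 tested acinar markers, with Ptf1a under the filter, 1 rose in each line. It was Cela1, by 1.21 in beta-catenin cells (adjusted p = 1.52e-07) and by 0.40 in ICAT cells (adjusted p = 0.000844). The summed acinar level was between 9.64 and 9.77 in beta-catenin cells, 9.13 and 9.20 in ICAT cells, and 8.85 and 8.96 in control cells.

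Ribosome biogenesis genes outside the list, such as further processome proteins and GTPases, were counted as well. Of 99 tested, 79 fell and 1 rose in ICAT cells, with a median of -0.48, and in beta-catenin cells 23 fell and 14 rose, with a median of -0.10. Wdr46, a scaffold of the small subunit processome, had 9.92, 9.86 and 9.96 in beta-catenin cells, 9.08, 9.05 and 9.35 in ICAT cells, and 10.44, 10.38 and 10.30 in control cells, and fell by 1.21 in ICAT cells (adjusted p = 1.81e-06). Tbl3 fell by 0.90 in ICAT cells (adjusted p = 0.000196), and so did Tcof1, the treacle protein of ribosomal DNA transcription, by 0.86 (adjusted p = 0.000156). The gene that rose in ICAT cells was Gnl3l, a GTPase related to Gnl3, by 0.34 (adjusted p = 0.000961), and it rose by 0.83 in beta-catenin cells (adjusted p = 1.01e-06). Tsr2, a chaperone of ribosomal protein S26, had 10.05, 9.89 and 10.00 in beta-catenin cells, 8.87, 8.72 and 8.99 in ICAT cells, and 8.96, 8.93 and 8.96 in control cells. It was 2.04 times higher in beta-catenin cells (adjusted p = 1.32e-06), and ICAT arrays overlapped control arrays.

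Of 11 further genes of RNA polymerase I, shared subunits included, 7 fell and 1 rose in ICAT cells, and in beta-catenin cells 6 fell and 2 rose. Over all genes tested, 18.5% fell and 18.7% rose in ICAT cells, and 15.4% fell and 19.6% rose in beta-catenin cells. Polr2e, a subunit common to the nuclear RNA polymerases, fell by 0.64 in ICAT cells (adjusted p = 0.000116) and by 0.40 in beta-catenin cells (adjusted p = 0.00296). Taf1b, another subunit of SL1, went the opposite way to Taf1d in ICAT cells. It had 7.63, 7.67 and 7.66 in beta-catenin cells, 8.22, 8.20 and 8.44 in ICAT cells, and 8.03, 7.86 and 7.82 in control cells, a difference of 0.38 in ICAT cells (adjusted p = 0.00323) and of -0.25 in beta-catenin cells (adjusted p = 0.0363).

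Cytosolic ribosomal proteins, the other main product needed for a ribosome, differed little. Of 77 listed genes, 42 had a single-gene probe set and passed the filter. In ICAT cells 4 fell and 1 rose, with a median of -0.02, and in beta-catenin cells 2 fell and 4 rose, with a median of -0.01. Rpl12 fell by 1.02 in ICAT cells (adjusted p = 1.31e-05), and Rps6 rose by 1.03 in beta-catenin cells (adjusted p = 3.23e-07). Ribosomal protein genes have many processed pseudogenes, whose transcripts a probe set may also read.

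**Figure D4:**
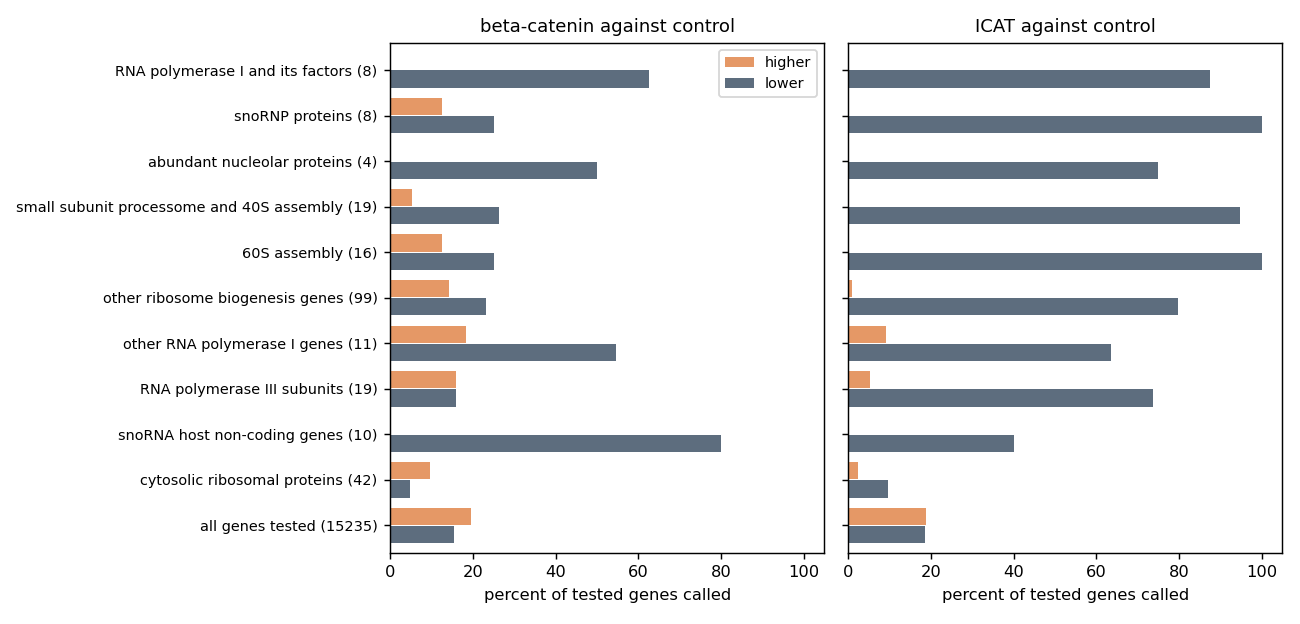
Percent of tested genes called higher (orange) or lower (grey) than control cells, by group of genes with the number tested in brackets, for beta-catenin cells (left) and ICAT cells (right). In ICAT cells 94.7% of the 40S assembly genes and 79.8% of the other ribosome biogenesis genes were lower, against 9.52% of cytosolic ribosomal proteins and 18.5% of all genes tested.

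Myc was measured at 11.48, 11.50 and 11.51 in beta-catenin cells, 11.24, 11.11 and 11.19 in ICAT cells, and 11.05, 11.00 and 11.12 in control cells. Beta-catenin arrays were highest and did not overlap the others. Myc was 1.36 times higher in beta-catenin cells (difference 0.44, adjusted p = 0.000178), and in ICAT cells its difference of 0.12 did not pass the test (adjusted p = 0.156). The 50 measured genes with a promoter window, Nop16 and Taf1d included, were divided by the E-box. With one, 12 of 12 fell in ICAT cells with a median of -0.63, and in beta-catenin cells 1 rose and 2 fell with a median of 0.02. Without it, 36 of 38 fell in ICAT cells with a median of -0.65, and in beta-catenin cells 2 rose and 16 fell with a median of -0.15. Over all genes tested, 18.5% fell in ICAT cells, and 15.4% fell and 19.6% rose in beta-catenin cells. The division by the E-box was not tested.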

How the data were processed

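Total RNA from 9 cultures was hybridised to Affymetrix arrays after labelling by a 3′ IVT kit, per the labels' protocols. The authors deposited log2 expression, 1 value for each probe set on each array, which RMA in the affy package produced, per the submitters' processing notes; the notes give no version. RMA normalises the arrays to one distribution, so a change shared by most genes would not show, and it compresses differences of dim probe sets. Of 45037 probe sets, 34945 carry 1 gene symbol, 932 several and 9160 none. The brightest probe set stood for a gene. Genes that reached a log2 of 5 on 3 or more arrays were fitted in 1 model with a mean per group (limma 3.58.1, R 4.3.3, lmFit and eBayes, two-sided), with Benjamini-Hochberg adjustment over 15235 genes and calls at an adjusted p under 0.05. Every adjusted p in the text is from limma. The script was tested on simulated data. Precision is limited by 3 arrays per group. Each p rests on the spread between arrays within the groups. An effect of the transfected gene cannot be told apart from other differences between the lines. Full values are given for Nop16, Taf1d and the 8 called genes with the largest change each way in each comparison, and for further lists up to 5 called genes are named; any other of the 55 genes may be named. The genes and all lists were chosen with earlier results of these data known. Same-numbered replicates were checked for pairing: correlations of their deviations ran from -0.129 to 0.41, the highest between replicate 3 of beta-catenin and ICAT cells. The numbers were not taken as pairs in the main fit. Alternatives covered the filter, the choice of probe set, the arrays fitted, array weights, normalisation, a replicate block and leaving out each array.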

Additional observations from a re-analysis of the deposited data

How the results depend on the processing

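The count of genes lower in ICAT cells than in control cells ran from 49 to 53 of 55 over all settings and leave-one-out fits, against 52 as reported, and the count higher was 0 in every one. The count lower in beta-catenin cells ran from 14 to 23 (18 as reported), and the count higher in beta-catenin cells than in ICAT cells from 44 to 49 (47 as reported). The 4 genes higher in beta-catenin cells became 8 with only the 6 arrays compared and 12 with array weights, and 2 to 6 when 1 array was left out. The 1 gene lower in beta-catenin cells than in ICAT cells became 0 with only the 6 arrays, with array weights or with arrays centred on their medians, 3 with cyclic loess, and 0 to 1 when 1 array was left out. The replicate numbers were not taken as pairs in the main fit. With a replicate block the counts were 4 higher and 19 lower in beta-catenin cells. They were 0 higher and 52 lower in ICAT cells, and 47 higher and 1 lower in beta-catenin cells than in ICAT cells. The sign turned in beta-catenin cells against control cells for Ddx21, at -0.24 with the mean of a gene's probe sets and -0.51 with the most variable probe set, and for Ddx18, at 0.15 with the most variable one. It turned for Polr1d in beta-catenin cells against ICAT cells, at 0.44 with the most variable probe set. Probe sets of these genes differ among themselves, and the cause of the other changes was not tested. Dim probe sets limit what can be read, since RMA compresses their differences, and the wider spread of the ICAT arrays enters the 1 variance that all groups share.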

Other observations

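Non-coding host genes of snoRNAs fell in beta-catenin cells, where 33 of the 55 protein-coding genes did not pass the test. Of 10 tested of 11 listed, 8 fell and 0 rose in beta-catenin cells (limma, 0 at an unadjusted p under 0.05 as well), with a median difference of -0.54, and in ICAT cells 4 fell and 0 rose (5 lower and 1 higher unadjusted), with a median of -0.15. Over all genes tested, 15.4% fell in beta-catenin cells and 18.5% in ICAT cells. Snhg12 had log2 levels of 8.27, 8.02 and 8.04 in beta-catenin cells, 9.03, 8.49 and 8.72 in ICAT cells, and 10.06, 10.00 and 9.98 in control cells. All 3 groups were apart with beta-catenin cells lowest, 3.74 times lower than control cells (adjusted p = 3.18e-07). Zfas1 had 10.92, 11.01 and 11.01 in beta-catenin cells, 11.64, 11.62 and 11.71 in ICAT cells, and 11.71, 11.66 and 11.66 in control cells. It fell by 0.70 in beta-catenin cells (adjusted p = 3.41e-06), and its difference of -0.02 in ICAT cells did not pass the test. Snhg3 fell by 1.32 in ICAT cells (adjusted p = 1.95e-06) and by 0.67 in beta-catenin cells (adjusted p = 0.000166).

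RNA polymerase III makes 5S ribosomal RNA and transfer RNA. Of 19 tested genes of its subunits and factors, ICAT cells had 14 lower and 1 higher than control cells, and beta-catenin cells had 3 lower and 3 higher. The beta-catenin shares, 15.8% each way, were close to those over all genes tested, 15.4% lower and 19.6% higher. In ICAT cells 18.5% of all genes tested were lower and 18.7% higher. The paralogs Polr3g and Polr3gl, alternative subunits of the enzyme, went opposite ways. Polr3g had 7.27, 7.61 and 7.60 in beta-catenin cells, 6.85, 7.03 and 7.31 in ICAT cells, and 8.13, 8.06 and 8.06 in control cells, 2.03 times lower in ICAT cells than in control cells (adjusted p = 5.83e-05). Polr3gl rose by 0.42 in ICAT cells and by 0.56 in beta-catenin cells.

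In the MYC network, beta-catenin cells had 3 of 12 genes higher and 2 lower than control cells, and ICAT cells had 3 higher and 1 lower, shares close to those over all genes tested (19.6% higher and 15.4% lower in beta-catenin cells, 18.7% and 18.5% in ICAT cells). Mxd4, a repressor that competes with MYC for MAX, rose by 1.01 in beta-catenin cells (adjusted p = 1.14e-06) and by 0.88 in ICAT cells (adjusted p = 6.71e-06). Mxi1, another such repressor, had 9.40, 9.38 and 9.49 in beta-catenin cells, 10.28, 10.64 and 10.42 in ICAT cells, and 10.06, 10.03 and 10.09 in control cells. It fell by 0.64 in beta-catenin cells (adjusted p = 0.000128), rose by 0.39 in ICAT cells (adjusted p = 0.00426), and differed between the lines by -1.03 (adjusted p = 3.99e-06).

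Of 4 tested genes of the list of the 5S ribonucleoprotein and p53, 1 fell in beta-catenin cells and 0 were called in ICAT cells by limma (1 lower at an unadjusted p under 0.05). Cdkn1a, the cell cycle inhibitor p21, fell by 1.17 in beta-catenin cells (adjusted p = 0.000128), with a difference of -0.07 in ICAT cells (adjusted p = 0.767).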
